A study of Mus musculus with 9 samples.

Results

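The enzymes and carriers of glycolysis, of the handling of its end products pyruvate and lactate, and of the pentose phosphate pathway were examined as 1 module in mouse CD8+ T cells. Its members were chosen as a list of 31 gene symbols. Of these, 30 had values among the 24391 genes of the deposited count tables, and all 30 passed the filter on low counts that left 11981 genes for testing. The symbol Pkm2 is listed by RefSeq as a synonym of Pkm and has no values of its own. The 30 genes comprise 19 of glucose uptake and glycolysis, 4 of pyruvate and lactate handling and 7 of the pentose phosphate pathway.

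RNA was sequenced from cytotoxic (CD8+) T lymphocytes that had been activated for 72 h in medium with interleukin 2 at 100 U/mL. The cells were either not treated (NT, 5 libraries) or activated together with an LSD1 inhibitor (LSD1i, 4 libraries). LSD1 is the enzyme made from Kdm1a, which takes methyl groups off lysine residues of histone H3. The labels give neither the compound and its dose nor the mouse strain and age, and they name no separate animals or cultures behind the libraries. The p-values therefore rest on a spread between libraries that may be only technical.

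Glycolysis splits glucose into pyruvate and yields ATP and NADH, and lactate dehydrogenase restores NAD+ by turning pyruvate into lactate, which leaves the cell through monocarboxylate carriers. The pentose phosphate pathway branches off at glucose-6-phosphate: its oxidative branch makes NADPH and its non-oxidative branch makes ribose-5-phosphate for nucleotides and returns carbon to glycolysis. Activated CD8+ T cells are known for a strong rise of glucose uptake and lactate release even when oxygen is plentiful, and Myc and HIF-1 are well-known transcriptional drivers of these genes.

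Levels are given as CPM (counts scaled to a common library size) of the batch-corrected table, scaled by edgeR's TMM factors, with libraries named as in that table. Its totals were 15003752 to 27215488 counts per library. The raw table gave 4 libraries other names: those called NT 1, NT 2, LSD1i 1 and LSD1i 2 in the batch-corrected table were LSD1i 1, LSD1i 2, NT 1 and NT 2 in the raw table, matched by their pattern of genes without counts. The other 5 libraries carried 1 name in both tables. The same 4 libraries were taken as 1 batch (replicates 1 and 2) and the 5 others as a second (replicates 3 to 5). This split was set by replicate number and checked against the ratio of corrected to raw counts. Results are therefore also given for the second batch alone, whose names do not differ. The CD8 T cell identity list held 13 genes with values, all of them tested, with summed levels of 9366 to 12335 CPM in NT and 8766 to 10642 CPM in LSD1i, and 1 of them was higher in LSD1i, Cd8a (log2 fold change 0.38 ± 0.08, SE, adjusted p = 0.0266, edgeR's quasi-likelihood test with Benjamini-Hochberg adjustment), a call lost with the batch as a term. The sums of the CD8 list rest largely on Gzmb, which had 87464 to 200078 counts per library. Lck, the next highest gene of that list, had at most 12868 counts. Cd4, Foxp3 and Ms4a1 had at most 5 counts in any library. Summed levels were 28.4 to 46.5 CPM in NT and 39.4 to 46.9 CPM in LSD1i for the CD4 and regulatory T cell list, 11.7 to 13.1 and 8.31 to 9.71 CPM for the B cell list, 5.96 to 9.45 and 6.55 to 9.71 CPM for the myeloid list, and at most 0.489 CPM for the erythroid and platelet list. Of the tested genes of these other lists, Cd40lg was higher in LSD1i (0 to 0.267 CPM in NT, 0.877 to 1.56 CPM in LSD1i), and the B cell genes Cd79b and Ebf1 were lower (adjusted p = 0.0317 and 0.048, edgeR). Both B cell calls were lost with the replicate block (0.115 and 0.166) and without NT 1 and LSD1i 3, and they held in 2 and 1 of the 9 fits that leave out 1 library. Of the myeloid list Cd68 alone was tested, without a call (119 to 232 counts), Itgam had 3 to 10 counts, and S100a8 and S100a9 were at 0 in every library. What part such cells had in the values of the module was not tested. Ribosomal transcript Rn45s took 13.3% of the raw reads of NT 1 and 1.66% to 2.87% of those of the other libraries.

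None of the 30 members passed the test between LSD1i and NT in either direction (0 of 30 higher and 0 of 30 lower), while 2.15% of all 11981 tested genes were called higher and 1.16% lower. The test was edgeR's quasi-likelihood test with Benjamini-Hochberg adjustment over all tested genes at 0.05, and the members' adjusted p ranged from 0.140 to 0.975. At an unadjusted p under 0.05 there were 4 of 30 members, Aldoc, Tpi1, Pgam1 and Pkm, against 14.6% of all genes. DESeq2 also called 0 members (4.69% of all genes), with a lowest adjusted p of 0.0667, and limma's voom with sample weights called 5 (8.84% of all genes). In the authors' deposited table, none of the members (0 of 30) was marked as changed, and the lowest adjusted p there was 0.129, for Pkm.

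The log2 fold change of LSD1i over NT was above 0 for 25 of 30 members, against 45.6% of all tested genes, and its median was 0.16 over the members and −0.02 over all genes. The values above 0 comprised 18 of 19 glycolysis members (median 0.19) and 3 of 4 pyruvate and lactate members (median 0.17). Of the 7 pentose phosphate members, 4 were above 0, with a median of 0.02. In bulk RNA a difference in the RNA per cell and a difference in the mixture of cells cannot be told apart.

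**Figure D1:**
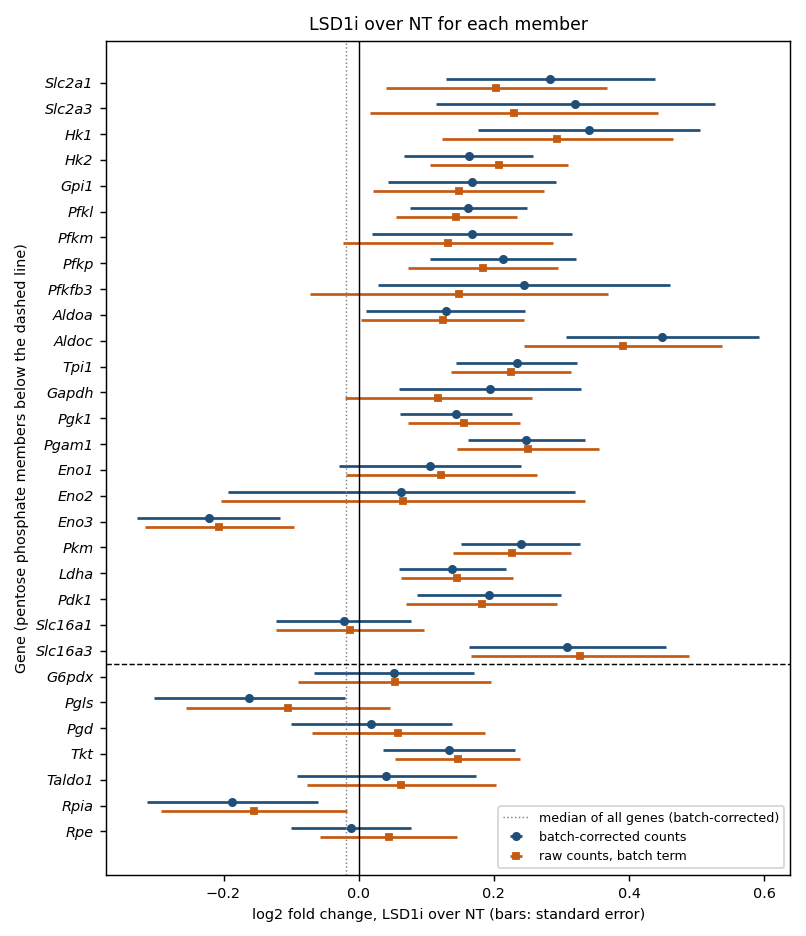
The log2 fold change of LSD1i over NT (x axis) is drawn for each of the 30 members (y axis), with bars of 1 standard error, for the batch-corrected counts (circles, 5 NT and 4 LSD1i libraries) and for raw counts with the batch as a term (squares). In the batch-corrected counts 25 of 30 circles lie right of 0, Aldoc is farthest right at 0.45 and Eno3 farthest left at −0.22, and 0 members passed the adjusted test in either fit.

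Per kilobase of annotated exon, the members spanned a wide range of levels. The length was the union of the exons of all annotated transcripts of a gene, not that of a single transcript. Orders and shares per kb therefore depend on the annotation, and the transcripts present in these cells were not tested. In NT, Ldha stood first at 1082 CPM per kb, followed by Aldoa at 977, Pkm at 798, Tpi1 at 656 and Gapdh at 594 CPM per kb. The SDs of these 5 genes, in that order, were 79.9, 139, 65.1, 62.5 and 101.04 CPM per kb. The mean ± SD ranges overlap between Ldha and Aldoa, Aldoa and Pkm, and Tpi1 and Gapdh. Such an overlap does not compare the genes within each library, and the order within those pairs was not tested. The carriers and entry enzymes were lower, with 158 CPM per kb for Slc2a3, 69.9 for Slc2a1, 53.6 for Hk2 and 33.3 for Hk1. In the pentose phosphate pathway Tkt stood highest at 111 CPM per kb, and Rpia lowest. Eno1 and Eno2 were the lowest of all members, at 3.29 and 2.11 CPM per kb. Enolase 1 is the ubiquitous enolase, and mouse Eno1 has a near-identical retrogene, Eno1b (2.02 to 3.13 CPM in these libraries), so that the value of Eno1 is uncertain. Gapdh and Ldha, among other members, have processed pseudogenes with which reads can be shared, and the sources used here give no strand setting for the counting.

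**Figure D2:**
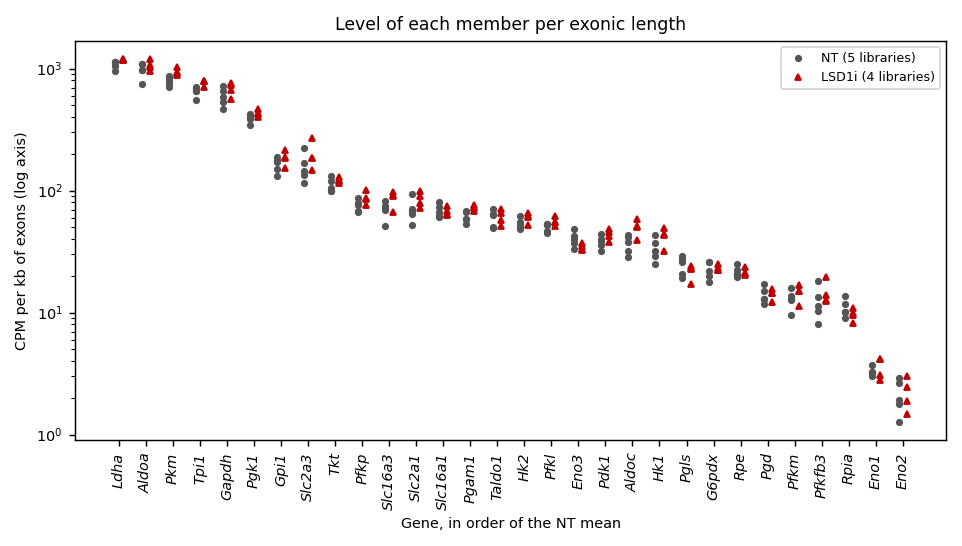
Each point is 1 library's level in CPM per kb of exon (y axis, log scale) for the 30 members, ordered by the NT mean (x axis), with NT as circles and LSD1i as triangles. Ldha, Aldoa, Pkm, Tpi1 and Gapdh stand at the top, Eno1 and Eno2 at the bottom, and the groups overlap for most members.

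In 4 members every LSD1i library stood above every NT library: Tpi1, Pgam1, Pkm and Ldha. That is 4 of 30, against 4.41% of all tested genes, and 0 of 30 members had every LSD1i library below every NT library, against 3.46% of all genes. In raw counts with the batch-corrected names, only Ldha among the 30 kept this separation, against 2.13% of all genes. Because these 4 genes are the ones that did not overlap, the bases upstream of their RefSeq starts (build GRCm38.p6) were read. The windows of Pgam1 and Ldha, which overlap no exon of the GENCODE M21 annotation, are printed 5′ to 3′ on the coding strand. Capitals mark ACGTG, the core shared by hypoxia response elements and E-boxes, on either strand. Each covers 250 bases up to the start, chr19:41911621-41911870 (+) for Pgam1 and chr7:46845554-46845803 (+) for Ldha, where 2 starts are listed and the upstream one is shown.
Pgam1: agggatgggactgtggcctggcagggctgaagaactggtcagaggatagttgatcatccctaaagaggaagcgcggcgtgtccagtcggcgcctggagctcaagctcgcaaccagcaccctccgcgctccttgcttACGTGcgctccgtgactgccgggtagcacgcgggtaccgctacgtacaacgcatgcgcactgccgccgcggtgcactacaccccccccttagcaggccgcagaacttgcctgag
Ldha: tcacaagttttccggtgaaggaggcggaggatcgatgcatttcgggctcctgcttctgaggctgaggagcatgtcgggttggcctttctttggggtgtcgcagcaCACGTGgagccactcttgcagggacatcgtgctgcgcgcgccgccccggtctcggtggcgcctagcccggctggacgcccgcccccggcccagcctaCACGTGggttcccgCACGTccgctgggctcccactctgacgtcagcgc

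The window of Pgam1 held 1 match to ACGTG. That of Ldha held 5 when both strands are counted, and 2 matches to CACGTG, the palindromic E-box, each of which holds ACGTG on both strands. The windows of Tpi1 and Pkm chosen by the same rule held 0 matches. Pkm has 2 listed starts, and the window of its other start held ACGTG. Over the module, 14 of 43 listed starts (32.6%), belonging to 11 of the 29 members with an entry, held ACGTG, against 16.6% of 32851 mouse starts. The 11 members were Slc2a1, Hk2, Pfkm, Pfkfb3, Aldoa, Pgk1, Pgam1, Pkm, Ldha, Slc16a1 and Slc16a3. CACGTG was held by 4 of the 43 starts (9.30%, of Pfkm, Pfkfb3, Ldha and Slc16a1) against 6.02% of all starts. A match is a run of letters and not a bound site.

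Glucose enters T cells mainly through the facilitative carriers GLUT1 and GLUT3, encoded by Slc2a1 and Slc2a3. Slc2a1 stood at 329, 227, 249, 183 and 238 CPM in NT 1 to NT 5 and at 276, 251, 349 and 319 CPM in LSD1i 1 to LSD1i 4. The groups overlapped through NT 1, the highest NT library, which stood above 3 of the 4 LSD1i libraries. The log2 fold change was 0.28 ± 0.15 (SE, adjusted p = 0.454, edgeR). Slc2a3 ran from 834 to 1633 CPM in NT (median 1041 CPM, 5 libraries) and from 1066 to 1963 CPM in LSD1i, a log2 fold change of 0.32 ± 0.21 (adjusted p = 0.558, edgeR), with NT 1 and LSD1i 3 the highest of their groups. Slc2a3 made up 69.1% ± 1.61 (SD, n = 5) of the summed CPM per kb of exon of both carriers in NT and 69.4% ± 2.90 (n = 4) in LSD1i.

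Hexokinase traps glucose in the cell by phosphorylating it. Hk1, the widely expressed form, stood at 368, 273, 249.9, 213 and 316 CPM in NT 1 to NT 5 and at 367, 273, 424 and 375 CPM in LSD1i 1 to LSD1i 4. LSD1i 2 lay among the NT libraries and NT 1 among the LSD1i libraries, and the log2 fold change was 0.34 ± 0.16 (adjusted p = 0.377, edgeR). Hk2, the inducible form, had 320.0 ± 30.7 CPM (SD, n = 5) in NT and 358 ± 33.8 CPM (n = 4) in LSD1i, with a log2 fold change of 0.16 ± 0.10. Hk2 took 58.9% to 66.2% of the summed CPM per kb of exon of Hk1 and Hk2 in NT and 54.7% to 65.9% in LSD1i. These shares rest on annotated lengths of 8.53 kb for Hk1 and 5.97 kb for Hk2. Before scaling by length, Hk1 had a mean of 284 CPM in NT. Gpi1, which converts glucose-6-phosphate to fructose-6-phosphate, had 1067 ± 149 CPM in NT and 1199 ± 162 CPM in LSD1i.

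Phosphofructokinase catalyses the committed step, and its 3 subunit genes had nearly the same log2 fold changes, 0.16 ± 0.09 for Pfkl, 0.17 ± 0.15 for Pfkm and 0.21 ± 0.11 for Pfkp. Pfkp, the platelet-type subunit, led in CPM with 1014 ± 115 in NT (SD, n = 5) and 1177 ± 138 in LSD1i (n = 4). Of the summed CPM per kb of exon of the 3 subunits, Pfkp took 54.5% ± 1.54 in NT and 55.3% ± 0.890 in LSD1i. Pfkfb3 makes fructose-2,6-bisphosphate, which activates phosphofructokinase. It stood at 138, 78.0, 102, 86.4 and 61.5 CPM in NT 1 to NT 5 and at 95.3, 94.2, 148 and 105 CPM in LSD1i 1 to LSD1i 4. The groups overlapped over most of their range, with NT 1 and LSD1i 3 again the highest, and the log2 fold change was 0.24 ± 0.22 (adjusted p = 0.704, edgeR).

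Aldolase cleaves the 6-carbon sugar. Aldoa, the main form here, ran from 2799 to 4070.4 CPM in NT and from 3554 to 4454 CPM in LSD1i. Aldoc, the form known from brain, had the largest log2 fold change of the 30 members, 0.45 ± 0.14 (adjusted p = 0.140, edgeR, a 1.37-fold ratio). Its levels were 141, 124, 136, 93.9 and 104 CPM in NT 1 to NT 5, against 169, 128, 193 and 165 CPM in LSD1i 1 to LSD1i 4. LSD1i 1, 3 and 4 stood above every NT library, and LSD1i 2 lay between NT 2 and NT 3. Aldoc gave 3.64% ± 0.558 (SD, n = 5) of the summed CPM per kb of exon of Aldoa and Aldoc in NT and 4.46% ± 0.353 (n = 4) in LSD1i. The neuronal and muscle marker list, added because several isozymes are typical of those tissues, summed to 7.16 to 8.43 CPM in NT and 9.13 to 10.1 CPM in LSD1i, and its part in these values was not tested.

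Among the later steps of glycolysis, which work on 3-carbon sugars and yield ATP, stand 3 of the 4 members whose groups did not overlap. Triosephosphate isomerase, Tpi1, stood at 1814, 1921, 1953, 1518 and 1822 CPM in NT 1 to NT 5 and at 2180.1, 1963, 2172 and 2176 CPM in LSD1i 1 to LSD1i 4. All LSD1i libraries were above all NT libraries, LSD1i 2 by a small margin, and the log2 fold change was 0.23 ± 0.09 (adjusted p = 0.239, edgeR). Gapdh, which reduces NAD+ and is often used as a reference gene, had 2455 ± 418 CPM (SD, n = 5) in NT and 2808 ± 355 CPM (n = 4) in LSD1i, a log2 fold change of 0.19 ± 0.13. Pgk1, the first ATP-yielding enzyme of the pathway, had a log2 fold change of 0.14 ± 0.08, and its LSD1i library 4 (896 CPM) lay below 3 NT libraries.

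Phosphoglycerate mutase 1, Pgam1, stood at 117, 132, 116, 106 and 134 CPM in NT 1 to NT 5 and at 146, 136, 152 and 141 CPM in LSD1i 1 to LSD1i 4. The groups did not overlap, though LSD1i 2 exceeded NT 5 only narrowly, and the log2 fold change was 0.25 ± 0.09 (adjusted p = 0.187, edgeR). Pyruvate kinase, Pkm, which makes pyruvate and ATP, stood at 4075, 4232, 4317, 3517 and 3824 CPM in NT 1 to NT 5 and at 4726, 4411, 5135 and 4585 CPM in LSD1i 1 to LSD1i 4. These groups did not overlap either, with a log2 fold change of 0.24 ± 0.09 (adjusted p = 0.215, edgeR). The gene-level counts do not separate the M1 and M2 splice forms of Pkm.

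The enolases had log2 fold changes on both sides of 0. Eno3, the form typical of muscle, was the 1 glycolysis member with a log2 fold change below 0, at −0.22 ± 0.11 (adjusted p = 0.373, edgeR), from 70.0 ± 9.77 CPM (SD, n = 5) in NT to 60.0 ± 3.35 CPM (n = 4) in LSD1i. NT 1 and NT 5, at 64.2 and 58.2 CPM, lay among the LSD1i libraries, which ran from 56.8 to 64.4 CPM. Eno1 had 17.7 ± 1.5 CPM in NT and 19.0 ± 3.87 CPM in LSD1i, and Eno2, the neuronal form, 9.92 ± 3.14 and 10.4 ± 3.18 CPM.

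Lactate dehydrogenase A, Ldha, stood at 3484, 3757, 3729, 3161 and 3783 CPM in NT 1 to NT 5 and at 3966, 3901, 3926 and 3981 CPM in LSD1i 1 to LSD1i 4. All LSD1i libraries lay in a narrow band above the highest NT library (SD 36.5 CPM against 265 CPM in NT), and the log2 fold change was 0.14 ± 0.08 (adjusted p = 0.490, edgeR). Pdk1, which inhibits pyruvate dehydrogenase and so keeps pyruvate out of the mitochondrial cycle, had 297 ± 36.6 CPM in NT and 340 ± 33.3 CPM in LSD1i (log2 fold change 0.19 ± 0.11).

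The lactate carriers MCT1 and MCT4, encoded by Slc16a1 and Slc16a3, had unlike values. Slc16a1 had 304 ± 37.1 CPM (SD, n = 5) in NT and 299.5 ± 21.6 CPM (n = 4) in LSD1i, a log2 fold change of −0.02 ± 0.10. Slc16a3 stood at 399.7, 390.2, 366, 272 and 438 CPM in NT 1 to NT 5 and at 520.0, 354, 480.0 and 494 CPM in LSD1i 1 to LSD1i 4, a log2 fold change of 0.31 ± 0.15 (adjusted p = 0.365, edgeR). LSD1i 2 lay below 4 NT libraries, and the other 3 LSD1i libraries lay above all NT libraries. Slc16a3 took 50.3% ± 3.30 of the summed CPM per kb of exon of both carriers in NT and 55.9% ± 5.89 in LSD1i. The ranges of these shares overlapped (45.6% to 54.9% and 47.2% to 60.2%).

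In the oxidative branch of the pentose phosphate pathway, G6pdx, which makes the first NADPH, had 68.7 ± 11.4 CPM (SD, n = 5) in NT and 71.2 ± 4.21 CPM (n = 4) in LSD1i. Pgd, which makes the second, had 89.9 ± 13.9 and 91.1 ± 9.28 CPM. The lactonase Pgls between them stood at 72.8, 97.2, 103, 78.4 and 110.0 CPM in NT 1 to NT 5 and at 86.7, 91.3, 65.3 and 86.8 CPM in LSD1i 1 to LSD1i 4. The groups overlapped throughout, and the log2 fold changes were 0.05 ± 0.12, 0.02 ± 0.12 and −0.16 ± 0.14 for G6pdx, Pgd and Pgls (adjusted p = 0.909, 0.971 and 0.701, edgeR).

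In the non-oxidative branch, the carbon-shuffling enzymes transketolase, Tkt, and transaldolase, Taldo1, had log2 fold changes of 0.13 ± 0.10 and 0.04 ± 0.13. Tkt had 817 ± 102 CPM in NT and 896 ± 44.5 CPM in LSD1i. The isomerase Rpia, which forms ribose-5-phosphate, had 59.0 ± 9.62 CPM in NT and 51.8 ± 6.0 CPM in LSD1i, a log2 fold change of −0.19 ± 0.13 (adjusted p = 0.589, edgeR), and the epimerase Rpe had −0.01 ± 0.09. NT and LSD1i overlapped for all 7 pentose phosphate members.

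**Figure D3:**
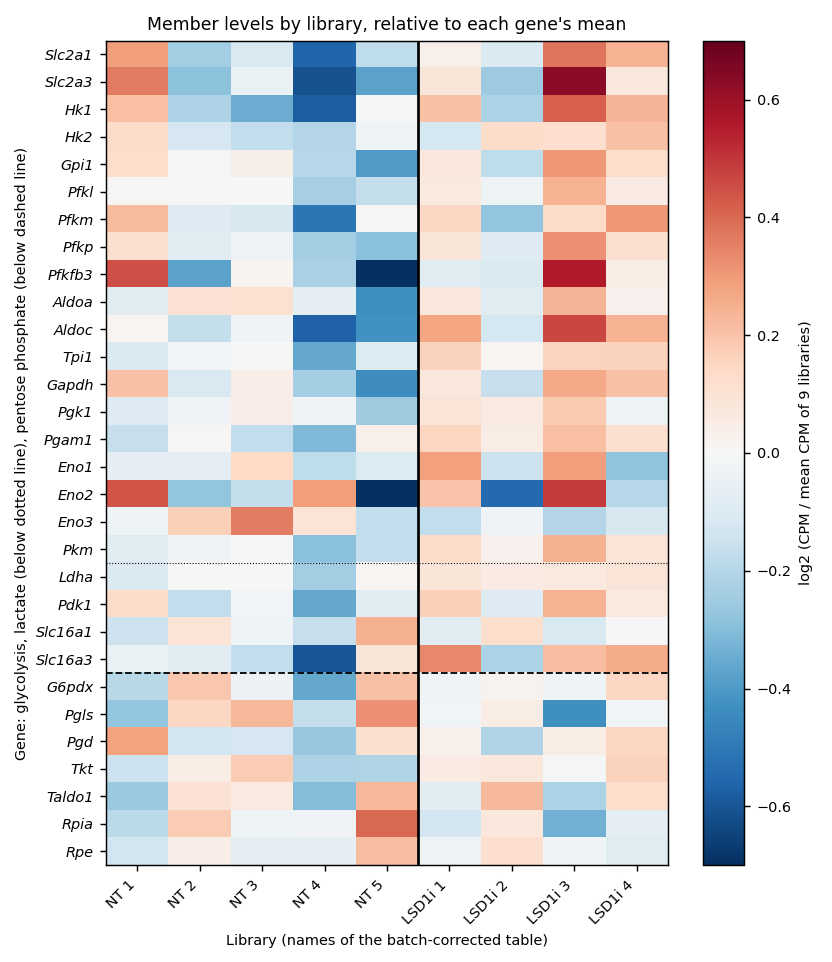
Colours give the log2 ratio of each library's CPM to the gene's mean over the 9 libraries (red above, blue below, with 2 NT 5 cells, Pfkfb3 and Eno2, beyond the end of the scale), with members in rows and libraries in columns. NT 1 and LSD1i 3 are red over much of glycolysis, and NT 4 and LSD1i 2 are blue over much of it.

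Within each group the members varied by library. Among the 23 glycolysis, pyruvate and lactate members, NT 1 was the highest NT library for 13 and NT 4 the lowest for 15, and LSD1i 3 was the highest LSD1i library for 16 and LSD1i 2 the lowest for 18. The median deviation from the group mean over these 23 members was 0.21 (log2) in NT 1 and −0.16 in NT 4, and 0.16 in LSD1i 3 and −0.19 in LSD1i 2. The pentose phosphate members followed another order: NT 5 was the highest NT library for 5 of 7, and LSD1i 2 the highest LSD1i library for 4 of 7 and LSD1i 3 the lowest for 4 of 7. With each library left out in turn, the members at an unadjusted p under 0.05 numbered from 3 (without LSD1i 3, 12.2% of all genes, or without LSD1i 4, 11.5%) to 14 (without NT 1, 15.8%), with 10 without LSD1i 2 (14.6%), 7 without NT 5 (16.8%) and 4 in the other cases, and 0 passed after adjustment in each. Without both NT 1 and LSD1i 3, 25 of 30 members were above 0, with medians of 0.20 over glycolysis, pyruvate and lactate and 0.03 over the pentose phosphate members. In that fit 3 members had an unadjusted p under 0.05 (12.5% of all genes), and 0 were called (2.47%).

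Within each batch, treatment was fitted in raw counts with the batch-corrected names. In the first batch (2 NT and 2 LSD1i libraries), 11 of the 23 glycolysis, pyruvate and lactate members were above 0, with a median of −0.01, while in the second (3 NT and 2 LSD1i libraries) 21 of 23 were, with a median of 0.34. Over all genes, 49.1% were above 0 in the first and 49.4% in the second batch. Of the pentose phosphate members, 5 of 7 were above 0 in the first batch (median 0.12) and 3 of 7 in the second (median −0.03). The edgeR test called 0 of 30 members in the first batch, against 0.0676% of all genes, and 0 of 30 in the second, against 0.969%. At an unadjusted p under 0.05 there were 0 and 14 members (5.04% and 13.8% of all genes). With the names of the raw table the sign of every fold change in the first batch is reversed by construction.

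**Figure D4:**
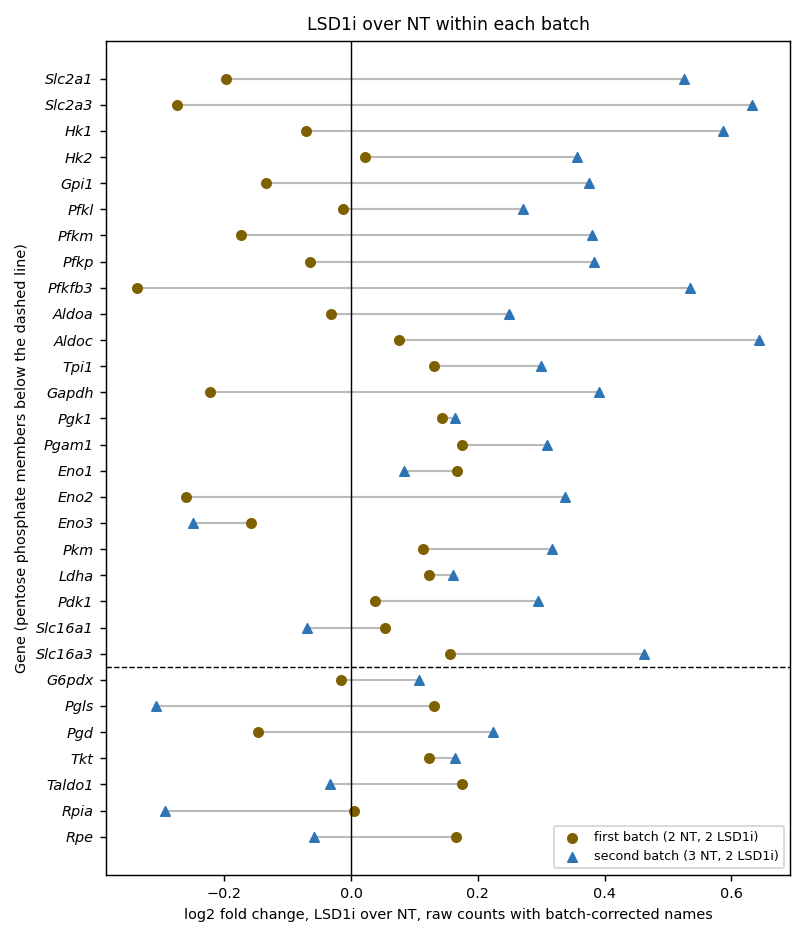
The log2 fold change of LSD1i over NT (x axis) in raw counts is drawn for each of the 30 members (y axis) within the first batch (circles, 2 NT and 2 LSD1i libraries) and the second (triangles, 3 NT and 2 LSD1i libraries). The triangle lies to the right for 23 of 30 members, and for 20 of the 23 glycolysis, pyruvate and lactate members.

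Of all 30 members, 23 had a larger log2 fold change in the second batch, against 51.1% of all genes. Slc2a3 had −0.28 in the first and 0.63 in the second batch, a difference of 0.87 ± 0.35 (SE, unadjusted p = 0.0302, edgeR's quasi-likelihood test of the interaction, adjusted p = 0.764). Pfkfb3 differed by 0.84 ± 0.37, Slc2a1 by 0.69 ± 0.26 and Gapdh by 0.58 ± 0.23, each with an adjusted p of at least 0.764. Hk1 differed by 0.62, Eno2 by 0.57, Aldoc by 0.54 and Hk2 by 0.31. Slc2a3, Pfkfb3, Slc2a1 and Gapdh were the members with an unadjusted interaction p under 0.05, against 4.88% of all genes, and 0 of 30 members and 0 of 11916 genes passed after adjustment. This test was added after the data were seen.

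Some members had values of the same sign in both batches. Ldha had log2 fold changes of 0.12 and 0.16, Pgk1 of 0.14 and 0.16, Tkt of 0.12 and 0.16, and Eno3 of −0.16 and −0.25. Tpi1, Pgam1 and Pkm were also above 0 in both batches. Their values were 0.13 and 0.30 for Tpi1, 0.18 and 0.31 for Pgam1, and 0.11 and 0.32 for Pkm. The second batch differed from the first by 0.14 ± 0.19 (SE) for Tpi1, 0.10 ± 0.22 for Pgam1 and 0.17 ± 0.18 for Pkm. For Eno3 the difference was −0.12 ± 0.23, and none of these differences exceeded its SE. With the batch as a term in raw counts, 26 of 30 members were above 0, against 46.1% of all genes, with a median of 0.15, and 0 were called, against 1.85% of all genes. In that fit the lowest adjusted p of a member was 0.306, that of Aldoc (log2 fold change 0.39, edgeR). With the replicate number as a block, edgeR called 0 members in the batch-corrected counts (2.72% of all genes) and 0 in raw counts with the batch-corrected names (2.95%). In raw counts with their own names edgeR called 0 of 30 members and 0 of 11916 genes (0% of all genes), with 2 members, Slc2a1 and Slc2a3, and 172 genes at an unadjusted p under 0.05.

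The batches themselves differed in several members. In raw counts 3 of 30 members were higher and 7 lower in the second batch than in the first at an adjusted p under 0.05 (edgeR), against 18.4% and 20.4% of all genes. Eno1 ran from 8.83 to 12.9 CPM in the first and from 24.2 to 33.0 CPM in the second batch (log2 difference 1.46, adjusted p = 8.24e-05, edgeR). G6pdx ran from 84.0 to 90.7 CPM and from 40.2 to 69.5 CPM (−0.64, adjusted p = 0.00567, edgeR), and Hk2 differed by −0.46 (adjusted p = 0.00571, edgeR). The batch-corrected values of these genes carry the authors' adjustment of such differences.

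The remaining genes of these pathways were read from lists. Of 19 tested other genes of glycolysis and sugar entry, 0 were called (2.15% of all genes higher, 1.16% lower) and 8 were above 0 (45.6% of all genes, median −0.07). The lowest p-values were those of Gpd2, the mitochondrial glycerol-3-phosphate dehydrogenase (−0.39 ± 0.10, adjusted p = 0.0587, edgeR), the sugar carrier Slc2a8 (0.53 ± 0.15) and the galactose mutarotase Galm (0.44 ± 0.16). Of 15 other genes of pyruvate and lactate handling, 1 was higher (2.15% of all genes) and 4 were above 0 (45.6% of all genes, median −0.04). The gene that rose was Emb, whose product embigin is an accessory protein of monocarboxylate carriers at the cell surface. Its levels were 238, 264, 241, 198 and 271 CPM in NT 1 to NT 5, against 371, 477, 440.4 and 459 CPM in LSD1i 1 to LSD1i 4. The groups lay far apart, with a log2 fold change of 0.85 ± 0.11 (adjusted p = 0.00114, edgeR), and 0.76 and 0.94 in the first and second batch. Emb was called with the batch as a term (adjusted p = 0.00471, edgeR) and not in raw counts with their own names. Bsg, the usual partner of MCT1 and MCT4, had 644 ± 58.6 CPM in NT and ran from 631 to 760 CPM in LSD1i, without a call; it was named after its values were seen.

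Of 8 other genes of the pentose phosphate and ribose steps, 1 was lower (1.16% of all genes) and 5 were above 0 (45.6% of all genes, median 0.13). H6pd, the glucose-6-phosphate dehydrogenase of the endoplasmic reticulum, stood at 23.0, 25.5, 22.4, 22.6 and 25.9 CPM in NT 1 to NT 5 and at 17.3, 17.6, 16.3 and 18.6 CPM in LSD1i 1 to LSD1i 4. It fell with no overlap between groups (log2 fold change −0.45 ± 0.09, adjusted p = 0.0159, edgeR), a call lost with the batch as a term (adjusted p = 0.061), with the replicate number as a block (0.0755), and without NT 2, LSD1i 1 or LSD1i 3 (0.0519 to 0.0647). In raw counts with their own names its log2 fold change was 0.12.

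Of 17 regulators of glycolysis, 0 were called (2.15% of all genes higher, 1.16% lower) and 9 were above 0 (45.6% of all genes, median 0.04). Hif1a, the regulated subunit of HIF-1, had 831 ± 92.2 CPM (SD, n = 5) in NT and 1003 ± 100.4 CPM (n = 4) in LSD1i (log2 fold change 0.27 ± 0.10, adjusted p = 0.221, edgeR). Vhl, which marks HIF-1 alpha for destruction, had 0.42 ± 0.10 (adjusted p = 0.0506, edgeR), and Max, the partner of Myc, 0.40 ± 0.12. Myc had −0.23 ± 0.12, and Txnip, which restrains glucose uptake, −0.04 ± 0.18. Of 20 other HIF-1 and hypoxia targets, 0 were called (2.15% of all genes higher, 1.16% lower) and 18 were above 0 (45.6% of all genes), with a median of 0.18. In the first batch 8 of 20 were above 0 (49.1% of all genes, median −0.06) and in the second 19 of 20 (49.4% of all genes, median 0.40). Ndrg1, a gene strongly induced by low oxygen, had the largest value, 253 ± 84.4 CPM in NT and 502 ± 143 CPM in LSD1i (0.99 ± 0.24, adjusted p = 0.0506, edgeR). Its log2 fold change was 0.34 in the first and 1.36 in the second batch. Its adjusted p in edgeR was 0.0209 with the replicate number as a block and 0.119 in raw counts with the batch as a term. Higd1a had 0.31 ± 0.08 and Ddit4 0.28 ± 0.11.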

How the data were processed

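The members and lists were chosen with earlier results of these data known. Libraries were made from total RNA, per the labels, and STAR, featureCounts, edgeR and the build mm9 are named in the submitters' processing notes. The sources used here give neither their versions nor the strand setting. The authors deposited raw read counts, batch-corrected estimated counts (whole numbers in the file, by a method that the sources used here do not name), and their own comparison as log2 fold changes, an F score and p-values. The batch-corrected counts were tested with edgeR 4.0.16 (R 4.3.3), TMM scaling, a filter by group (minimum count 10, minimum total 15) and no covariate. The test counts no degrees of freedom for the correction already made. SEs are those of log2 fold changes, SDs those of CPM over libraries.

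All members, genes of the other lists called at 0.05 or otherwise the 3 with the smallest p, and Hif1a, Myc and Txnip are named. Raw counts were 15163983 to 29245278 per library. No pair of libraries within a group agreed within sampling noise (lowest chi-square per degree of freedom 7.43). Batches were set by replicate number and checked in the corrected-to-raw log2 ratio over 9618 genes. The deviations of that ratio correlated at 0.755 to 0.980 within and −0.962 to −0.790 between the sets. Same-numbered NT and LSD1i libraries did not deviate together in the batch-corrected table (r of −0.09, 0.23, 0.09 and −0.30). DESeq2 1.42.0, limma 3.58.1, other scalings, no filter, the replicate block, raw counts and leaving out each library were tried. Of these fits, only the edgeR fit without a covariate was tested on simulated data. Exon lengths are unions over all transcripts of a gene in GENCODE M21 (GRCm38), not the mm9 build. Promoters are from RefSeq, with an entry for 29 of 30 members.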

Additional observations from a re-analysis of the deposited data

Results flagged for a closer look

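Tpi1, triosephosphate isomerase, had 1 LSD1i library apart from the others. LSD1i 2 stood at 1963 CPM, and the other 3 LSD1i libraries at 2172 to 2180.1 CPM. The gap to the nearest library was 0.965 of the range of the group, above Dixon's 95% critical value of 0.829 for 4 samples. It was the 1 library picked out among 60 groups of values (30 members in NT and in LSD1i), and chance picks out about 1 in 20 groups.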

How the results depend on the processing

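No member was called in any edgeR or DESeq2 fit, and leaving out each library gave 0 to 0 members called higher, 0 to 0 called lower and 22 to 26 of 30 above 0. limma's voom with sample weights called 4 members higher (Hk1, Aldoc, Pgam1 and Slc16a3) and 1 lower (Eno3), with adjusted p from 0.0315 to 0.0481, and 625 genes higher and 434 lower in all. The edgeR fit of the batch-corrected counts called 258 genes higher and 139 lower. DESeq2 called 399 and 250. Raw counts as named called 0 and 0, also with the replicate block, and 71 and 13 under the batch-corrected names, 166 and 54 with the batch as a term, 8 and 0 in the first batch, and 97 and 20 in the second batch, which is also the set of libraries named alike. Members above 0 were 16 of 30 in the first batch. Leaving out each library gave 163 to 303 genes higher and 56 to 159 lower. Leaving out both NT 1 and LSD1i 3, an alternative added after seeing the data, gave 213 higher and 83 lower. H6pd had a log2 fold change of 0.12 in raw counts as named and 0.066 there with the replicate block. The cause of these differences was not tested.

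The labels give NT and LSD1i libraries the same replicate numbers. With the replicate block, the batch-corrected counts gave 0 members called, 26 of 30 above 0, and 219 genes higher and 107 lower. The numbers did not pair the libraries in that table, while in raw counts with the batch-corrected names same-numbered libraries correlated at 0.46 to 0.71 (they share a batch), and the block called 0 members, 236 genes higher and 116 lower. The members' standard errors, from 0.08 to 0.26 on the log2 scale, bound the size of difference that 9 libraries could show.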
